A study of Homo sapiens with 12 samples.

Results

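Cytoplasmic dynein-1, dynactin and the proteins that couple them to cargo are described here through 34 human genes chosen by symbol: 11 dynein subunits, 9 dynactin subunits, 11 adaptors and 3 regulators. The deposited iMN table listed 33 of the 34 genes among its 15899 symbols, and the i3N table listed all 34 among 18390. *DYNLRB2*, an alternative roadblock light chain, had no row in the iMN table, which left 33 genes that could be set side by side in both cell types.

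Dynein-1 is the motor that carries cargo toward the minus ends of microtubules, which in an axon means from the synapse back to the cell body. Its heavy chain hydrolyses ATP and walks, the intermediate and light intermediate chains link the motor to dynactin and adaptors, and 3 families of small light chains bind along the intermediate chains. Dynactin is a second complex built around a short filament of actin-related proteins. An activating adaptor such as BICD2 or HOOK3 holds dynein, dynactin and a cargo together, and LIS1, the product of *PAFAH1B1*, with its partners NDE1 and NDEL1 helps the assembly to form. Variants in *DYNC1H1* and *BICD2* are known causes of dominant, lower-limb forms of spinal muscular atrophy (SMA), and variants in *DCTN1* of motor neuron disease, which sets these genes beside a study of SMN loss.

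RNA-seq was done on 12 libraries. Induced motor neurons (iMNs) were differentiated from 1 iPSC line that carries an HB9-Td-Tomato reporter and were sorted for it. Neurons of the second kind (i3Ns), labelled as cortical, were made by inducing the transcription factor NGN2 in H1, an established human ES cell line. Each cell type had 3 libraries with scrambled shRNA (SCR) and 3 with shRNA against *SMN1* and *SMN2* (*SMN*-KD), and all 12 carried an shRNA. The labels do not say whether replicates were separate differentiations. The deposited tables, 1 per cell type, give no values per library. Their level of a gene is the authors' mean normalized count over the 6 libraries of a cell type, SCR and *SMN*-KD pooled, so a level has no spread and no test between the groups was possible from it. The columns that hold the authors' own comparison of *SMN*-KD with SCR were not used, and nothing below bears on the effect of the knockdown. What the pooled means allow is a description of how much RNA of each subunit was present, which paralogue of each family prevailed, and how the iMN and i3N levels stood to each other.

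The pooled levels set limits on that last description. The tables were normalized separately, so for ratios between cell types each mean was divided by the sum of the means of the 15666 symbols listed in both tables (the rescaled level). The cell type, the stem cell line, the differentiation and the table cannot be told apart, and neither can fewer cells of a type and less RNA per cell. The 5 pan-neuronal markers, among them *TUBB3* and *STMN2*, were listed in both tables and none differed by over 2-fold. The 8 motor neuron markers were also listed in both, and some went against the labels: *MNX1*, the gene of HB9 itself, had a mean of 430 in iMNs and 2279 in i3Ns, *ISL1* had 1663 and 14299, and *ISL2* and *LHX3* were also over 2-fold higher in i3Ns. Of the cholinergic genes, *SLC5A7*, the choline transporter, was 3.56-fold higher in iMNs, while *CHAT*, the enzyme that makes acetylcholine, had means of 533 and 527. *SLC18A3*, the vesicular acetylcholine transporter, had 3115 and 1865 (1.74-fold higher in iMNs), and *PRPH*, the neurofilament protein peripherin, had 7288 and 5833 (log2 ratio, i3N over iMN, -0.38). Of the 6 glutamatergic genes, *SLC17A6*, *SLC17A7* and *NEUROD1* were over 2-fold higher in i3Ns, and *NEUROD2* was listed there only. The others were within 2-fold: *POU3F2* had means of 1792 and 2672 (log2 ratio 0.52), and *CUX2* had 1734 and 2033 (log2 ratio 0.17). Summed means of 4 genes of dividing cells were 213 in iMNs and 1145 in i3Ns, those of 4 mesenchymal genes 2546 and 6167, those of 6 glial genes 380 and 1312 with the defining glial genes *GFAP*, *AQP4* and *SOX10* in neither table, and those of 3 stem cell genes 215 and 4258. The sums hide unequal members: *COL1A2* had 686 and 611, *S100B* was listed in iMNs only, and *LIN28A* alone made up 4216 of the stem cell sum in i3Ns, where *POU5F1* had 34.4 and *NANOG* 7.73. The part of these cells in the ratios below was not tested. *SMN1* and *SMN2* together had a mean of 1174 in iMNs and 1079 in i3Ns, values that pool SCR with *SMN*-KD and so do not show the knockdown.

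Since several of the genes are paralogues, how well their reads can be told apart comes before their levels. The first 30 coding bases of 3 pairs, taken from the MANE Select transcripts of GENCODE release 44 on GRCh38, show how close these pairs are. They are shown because the paralogue shares of these families carry much of what follows, and capitals mark the bases that differ within a pair.
DYNC1I1: atgtcTgacaaaagtgaCttaaaAgctgag
DYNC1I2: atgtcAgacaaaagtgaAttaaaGgctgag
DYNLL1: atgtGCgaccgAaaggcCgtgatcaaAaaT
DYNLL2: atgtCTgaccgGaaggcAgtgatcaaGaaC
ACTR1A: atggagtcctacgaTGtGatcgccaaccag
ACTR1B: atggagtcctacgaCAtCatcgccaaccag
The intermediate chains *DYNC1I1* and *DYNC1I2* differ at 3 of these 30 bases, the LC8 light chains *DYNLL1* and *DYNLL2* at 6 and the actin-related proteins *ACTR1A* and *ACTR1B* at 3. Over whole coding sequences the identity was 71.0% for the first pair, 79.8% for the second and 79.4% for the third, the second differing at 54 of 267 bases. Even so, 13 of the 14 pairs within the 10 families shared no run of 31 coding bases, and *ACTR1A* and *ACTR1B* shared 5 such runs, so reads of one paralogue could rarely be taken for another. Reads shared with other annotated genes were a larger limit. In 9 of the 34 genes, over 10% of the 31-base runs of the MANE transcript also occurred in a transcript of another gene, and in 5 genes over 20%. The highest share, 88.3%, was that of the light chain *DYNLRB1*, whose main partner in GENCODE release 44 had no row in either table. The annotation behind the authors' counts is not given, so whether this sharing affected the level of *DYNLRB1* is unknown. *DCTN5* followed with 32.0% and *DYNC1I2* with 27.2%, the latter shared with the pseudogene *DYNC1I2P1*, which had no row in either table.

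The dynein heavy chain, which is the motor itself, had the largest mean of the 34 genes. *DYNC1H1* (chromosome 14, 101964573 to 102056443, plus strand, GRCh38) had a mean normalized count of 132529 in iMNs and 153479 in i3Ns. It alone held 39.5% of the summed means of the genes in iMNs and 40.7% in i3Ns. Much of that is length, since its MANE transcript has 19940 bases, the longest of the 34. Divided by transcript length, its level was 6646 per kb in iMNs and 7697 per kb in i3Ns, the third highest in iMNs and the second in i3Ns. Between the cell types its log2 ratio, i3N over iMN, was 0.16.

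The 2 intermediate chains, which tie the heavy chain to dynactin, stood apart from each other. *DYNC1I1* (chromosome 7, 95772506 to 96110322, plus strand), the form best known from neurons, had a mean of 3584 in iMNs and 1360 in i3Ns, and *DYNC1I2*, the form found in most cells, had 9626 and 11567. By rescaled level, *DYNC1I1* was 2.74-fold higher in iMNs (log2 ratio -1.45), the lowest ratio of the 33 genes, while *DYNC1I2* had a log2 ratio of 0.21. The share of *DYNC1I1* in the summed level per kb of the pair was accordingly 35.5% in iMNs and 14.8% in i3Ns. Within each table *DYNC1I2* was the more abundant.

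The light intermediate chains bind most activating adaptors, and both had higher levels in i3Ns. *DYNC1LI1* had means of 4723 and 7835 (log2 ratio 0.67) and *DYNC1LI2* had 12504 and 16677 (log2 ratio 0.36), neither over 2-fold. *DYNC1LI1* held 39.7% of the pair's level per kb in iMNs and 45.0% in i3Ns.

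All 5 light chains measured in both tables had ratios below 0, none of them over 2-fold. *DYNLL1*, an LC8 light chain that also serves many proteins outside dynein, had means of 6403 and 5430. Per kb of the MANE transcript it had the highest level of the 34 genes in both tables, 9657 in iMNs and 8190 in i3Ns. *DYNLL2* had larger means, 16162 and 14887, from a MANE transcript of 6807 bases against 663 for *DYNLL1*, so which LC8 gene led depended on the division by length. Per kb, *DYNLL1* held 80.3% of the pair in iMNs and 78.9% in i3Ns, or 66.2% and 64.3% with the longest annotated transcripts. Its rank among the 34 genes was not taken with that length. The roadblock chain *DYNLRB1* had means of 4547 and 3493 (log2 ratio -0.44), and *DYNLRB2* had a mean of 2.92 in i3Ns, 0.0881% of that pair per kb. Of the Tctex chains, *DYNLT1* had means of 2878 and 2644 (log2 ratio -0.18) and *DYNLT3*, which lies on the X chromosome, had 1061 and 772 (log2 ratio -0.52). *DYNLT1* held 88.9% and 91.0% of its pair, or 66.9% and 71.8% with the longest annotated transcripts, so that the share of *DYNLT3* depended on the length used.

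Set against the heavy chain per kb, the light intermediate chains summed to 0.721 in iMNs and 0.910 in i3Ns, and the intermediate chains to 0.516 and 0.405. Of the light chains, the LC8 family summed to 1.81 and 1.35, the roadblock family to 1.03 and 0.686, and the Tctex family to 0.667 and 0.517. All of these sums use MANE transcript lengths, and sums with other lengths were not taken. Dynein itself holds heavy, intermediate and light intermediate chains in equal number, while these values are RNA levels per length and need not follow protein.

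**Figure D1:**
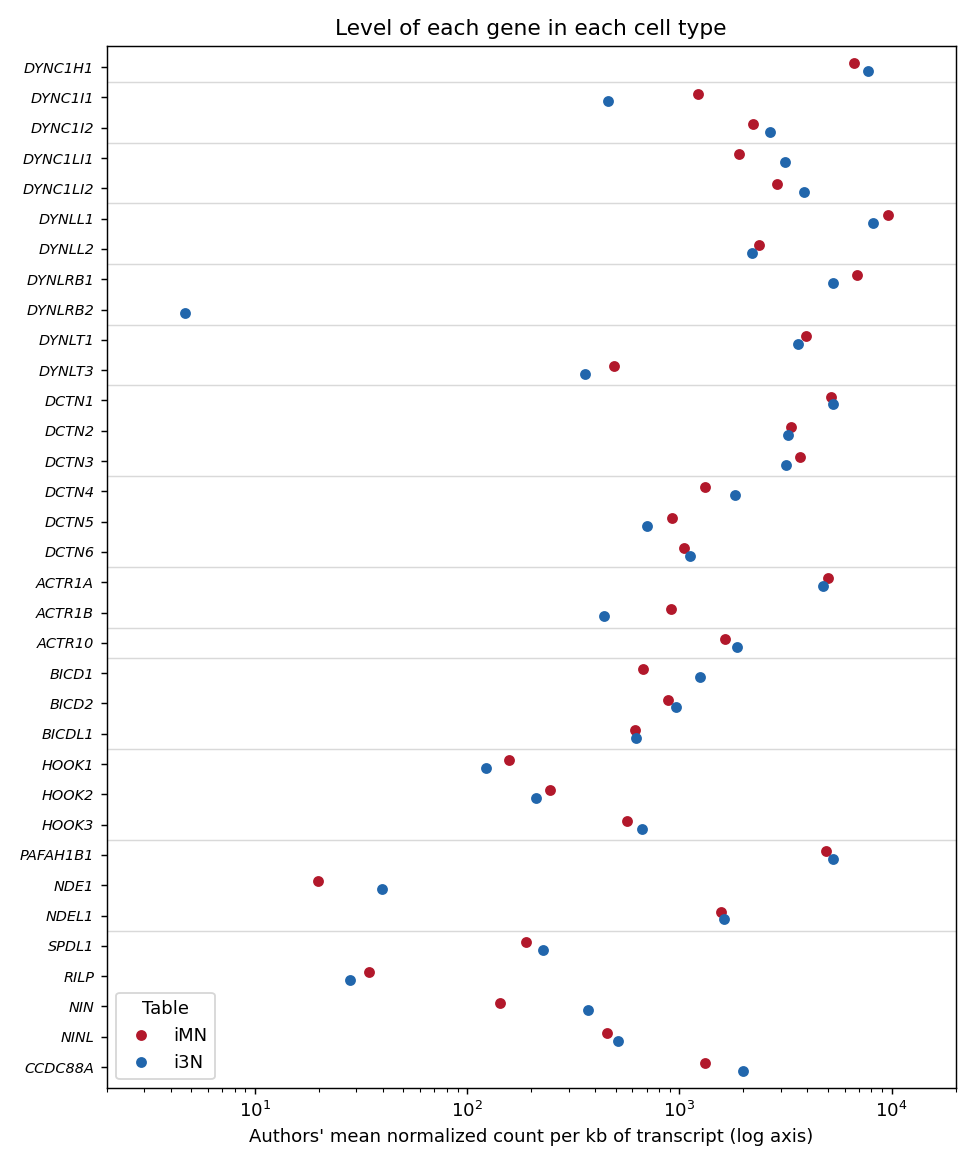
Level of each of the 34 genes on a log axis, in iMNs (red) and i3Ns (blue). Levels are the authors' mean normalized count per kb of the MANE Select transcript. Genes run from dynein through dynactin to the BICD and HOOK adaptors, then the regulators, then the other adaptors. Each point pools 6 libraries and has no error bar, *DYNLRB2* has a point in i3Ns only, and *DYNLL1* lies farthest right in both cell types.

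Of the 9 dynactin genes, 8 lay within 2-fold between the cell types, as did 11950 of all 15666 genes listed in both tables. Among genes with a mean of at least 1000 in either table, 7103 of 8419 did. The median absolute log2 ratio of the dynactin genes was 0.13, beside 0.33 over 10 dynein subunits and 0.28 over 11 adaptors. It was 0.47 over all genes and 0.39 over those abundant genes. The shoulder subunits had high levels in both cell types. *DCTN1*, whose product reaches out to microtubules and binds the intermediate chains, had means of 23162 in iMNs and 23618 in i3Ns (log2 ratio -0.03). *DCTN2*, the dynamitin subunit whose overproduction breaks the complex apart, had 6611 and 6399, and *DCTN3* had 3048 and 2617. All 3 were above 95% of the genes in their table per kb.

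The pointed-end subunits, which cap the filament and help to bind cargo, had lower levels per kb. *DCTN4* had means of 5437 and 7519 (log2 ratio 0.41), *DCTN5* had 10134 and 7704 (log2 ratio -0.45), *DCTN6* had 1111 and 1177, and *ACTR10* had 3939 and 4493. The *DCTN4* and *DCTN5* ratios thus pointed in opposite directions, each within 1.5-fold. *DCTN6* shared 24.1% of its 31-base runs with other genes, most of them with its neighbour *LEPROTL1*.

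In the filament, *ACTR1A* far outweighed *ACTR1B*. *ACTR1A* had means of 14149 and 13487 (log2 ratio -0.13), and *ACTR1B* (chromosome 2, 97655939 to 97664044, minus strand) had 2001 and 976. *ACTR1B* was 2.13-fold higher in iMNs (log2 ratio -1.09), the only dynactin gene over 2-fold. Its share of the pair per kb was 15.4% in iMNs and 8.50% in i3Ns.

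The 11 adaptors had levels of 34.4 to 1320 per kb in iMNs and 28.0 to 1991 per kb in i3Ns, all below that of the heavy chain. Among the BICD family, *BICD1* had means of 6321 in iMNs and 11807 in i3Ns (log2 ratio 0.85, or 1.80-fold). *BICD2*, which carries RAB6 vesicles and the nucleus, had 5671 and 6216 (log2 ratio 0.08), and *BICDL1*, a shorter relative, had 2363 and 2380 (log2 ratio -0.05). Per kb the leading gene was *BICD2* in iMNs with 40.6% of the family, and *BICD1* in i3Ns with 44.2%. This was the only one of the 10 families whose leading gene differed between the tables, and without the division by length *BICD1* led in both.

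The HOOK proteins link dynein to endosomes. *HOOK3* had means of 8139 and 9511 (log2 ratio 0.17), *HOOK1* had 899 and 697 and *HOOK2* had 623 and 534. *HOOK3* held 58.5% of the family per kb in iMNs and 66.6% in i3Ns, and *HOOK1* and *HOOK2* lay below the middle of all genes per kb in both tables.

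*NIN*, which encodes ninein, a protein of centrosomes that anchors microtubules, had the highest ratio of the 33 genes. *NIN* (chromosome 14, 50719763 to 50831162, minus strand) had a mean of 1472 in iMNs and 3838 in i3Ns, 2.51-fold higher in i3Ns by rescaled level (log2 ratio 1.33), and was the only gene over 2-fold in that direction. Its relative *NINL* had 2281 and 2558 (log2 ratio 0.11). *NIN* held 23.8% of this pair per kb in iMNs and 42.0% in i3Ns, and without the division by length it held 39.2% and 60.0%, so that it led in i3Ns. *CCDC88A*, which encodes girdin, a HOOK-related protein that binds actin, had means of 12869 and 19415 (log2 ratio 0.54).

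*SPDL1* and *RILP* had the smallest means of the adaptors in iMNs. *SPDL1*, which encodes spindly and brings dynein to kinetochores of dividing cells, had means of 476 and 576 (log2 ratio 0.22). *MKI67*, a marker of division, had 28.3 and 522, and a relation to *SPDL1* was not tested. *RILP*, which joins RAB7 on late endosomes to dynactin, had 53.7 and 43.7. Both tables split *RILP* over 2 identifiers, and 64.9% of its level in iMNs and 68.9% in i3Ns stood under the one outside the main annotation.

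The regulators of dynein assembly divided into an abundant gene, a moderate one and a scarce one. *PAFAH1B1*, whose loss of 1 copy causes lissencephaly, had means of 27412 and 29546 (log2 ratio 0.05), second only to *DYNC1H1* among the 34 genes. *NDEL1*, the form that serves neurons after division, had 3677 and 3820 (log2 ratio -0.00091). *NDE1*, the form known from dividing progenitors, had 63.0 and 127 (log2 ratio 0.95, or 1.93-fold). Of the genes of dividing cells, *MKI67* and *TOP2A* were over 2-fold higher in i3Ns and *CCNB1* 1.48-fold, while *CDK1* was listed in i3Ns only. Whether dividing cells had a part in the *NDE1* ratio was not tested. *NDEL1* held 98.8% of the pair per kb in iMNs and 97.6% in i3Ns. *NDE1* overlaps *MYH11* on the opposite strand, with which it shares 540 of its 31-base runs, and was also split over 2 identifiers. *MYH11* was not listed in iMNs and had a mean of 8.34 in i3Ns.

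**Figure D2:**
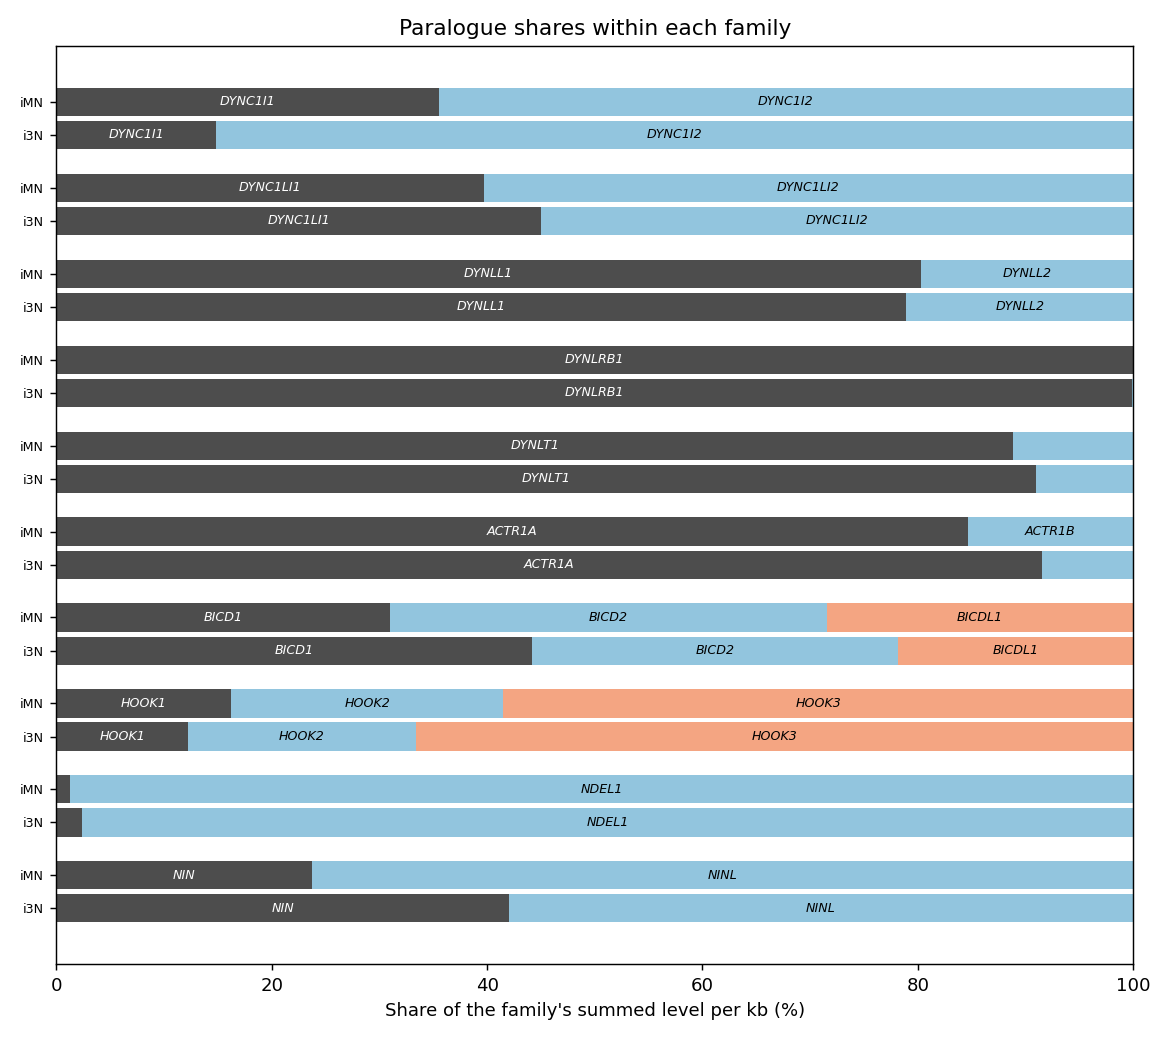
Share of each paralogue in the summed level per kb of its family, in percent, with an upper bar for iMNs and a lower bar for i3Ns in each of 10 families. *DYNC1I1* held 35.5% and 14.8% of its pair and *NIN* 23.8% and 42.0%, while *DYNLL1* held 80.3% and 78.9%, and segments too narrow for a name are the other member of the pair.

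Read as a group, these were abundant genes. In iMNs 28 of 33 had a mean normalized count of at least 1000, and in i3Ns 26 of 34 did, against a median over all genes of 875 and 577. Per kb, 22 genes in iMNs and 21 in i3Ns lay above 75% of the genes of their table. When only genes with a mean of at least 100 in that table were ranked, the counts were 19 in iMNs and 19 in i3Ns. The genes below the middle of all genes numbered 6 in iMNs and 5 in i3Ns, among them *HOOK1*, *HOOK2*, *RILP* and *NDE1*.

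Few of the genes differed by over 2-fold between the cell types. Of 33 genes, 1 was over 2-fold higher in i3Ns (3.03%, *NIN*) and 2 were over 2-fold lower (6.06%, *DYNC1I1* and *ACTR1B*). Over all 15666 genes of both tables the shares were 9.82% and 13.9%, and over genes with a mean of at least 100 in either table they were 9.1% and 11.4%. At a limit of 1.5-fold, 4 of the 33 genes were higher in i3Ns and 2 lower, beside 19.3% and 22.7% of all genes. Most of the 33 genes were abundant, so the shares were also taken over abundant genes. Among the 8419 genes with a mean of at least 1000 in either table, a limit chosen after the data were seen, 15.6% were over 2-fold in either direction, beside 3 of the 28 abundant dynein, dynactin and adaptor genes (10.7%). The median absolute log2 ratio of the 33 genes was 0.28, beside 0.47 over all genes, and among abundant genes it was 0.19 beside 0.39. No test was made of these shares, each of which rests on 4 dynein, dynactin and adaptor genes or fewer.

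**Figure D3:**
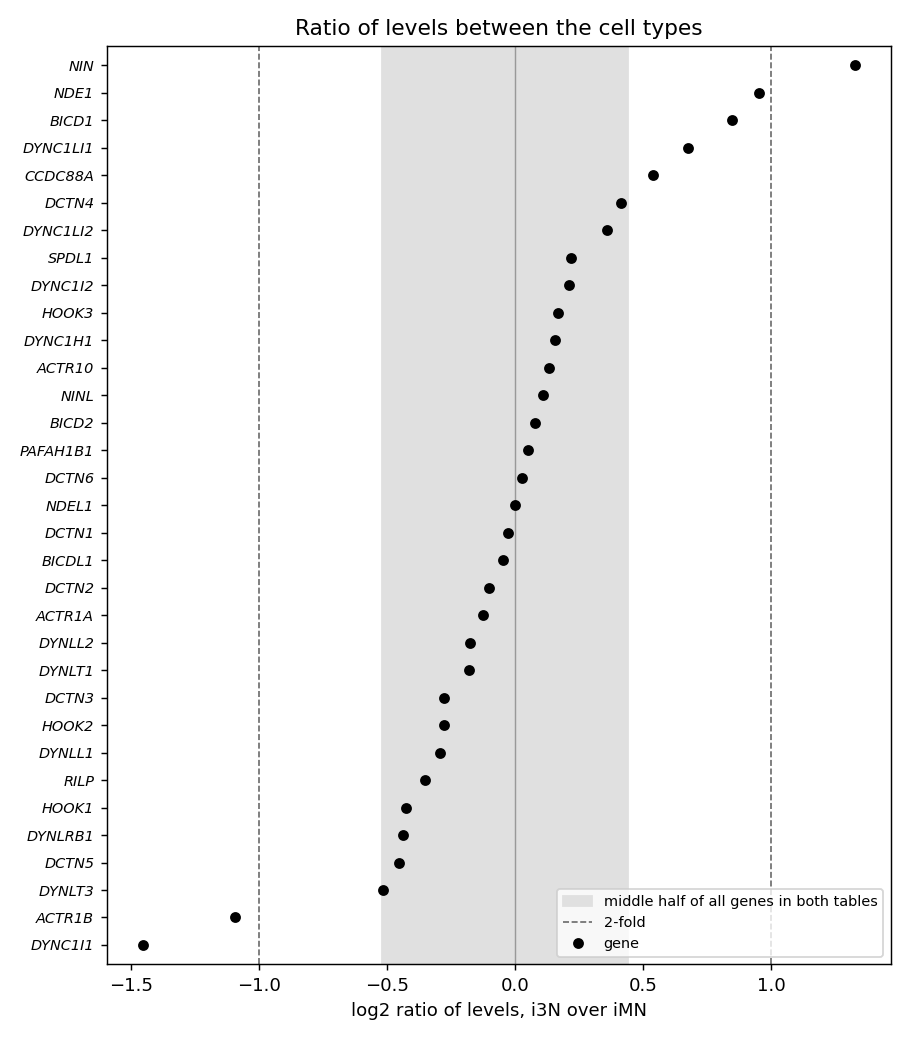
log2 ratio of the rescaled level, i3N over iMN, for the 33 genes listed in both tables, ordered from highest to lowest. Grey spans the lower to the upper quartile of all 15666 genes (-0.52 to 0.44), dashed lines mark 2-fold, and only *NIN*, *DYNC1I1* and *ACTR1B* lie outside the dashed lines.

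The ratios were centred near 0. Their median was -0.00091, beside 0.02 over all genes, with 16 genes above 0 and 17 below. The ratios of *DCTN1*, *BICDL1* and *NDEL1* turned positive when means were taken as deposited, and that of *DCTN6* turned negative when ratios were centred on their median. The levels of the 33 genes in the 2 cell types correlated with Pearson's r = 0.97 and Spearman's rho = 0.96 on the log scale, beside 0.92 and 0.93 over all genes, a description across genes that share the same pooled libraries.

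**Figure D4:**
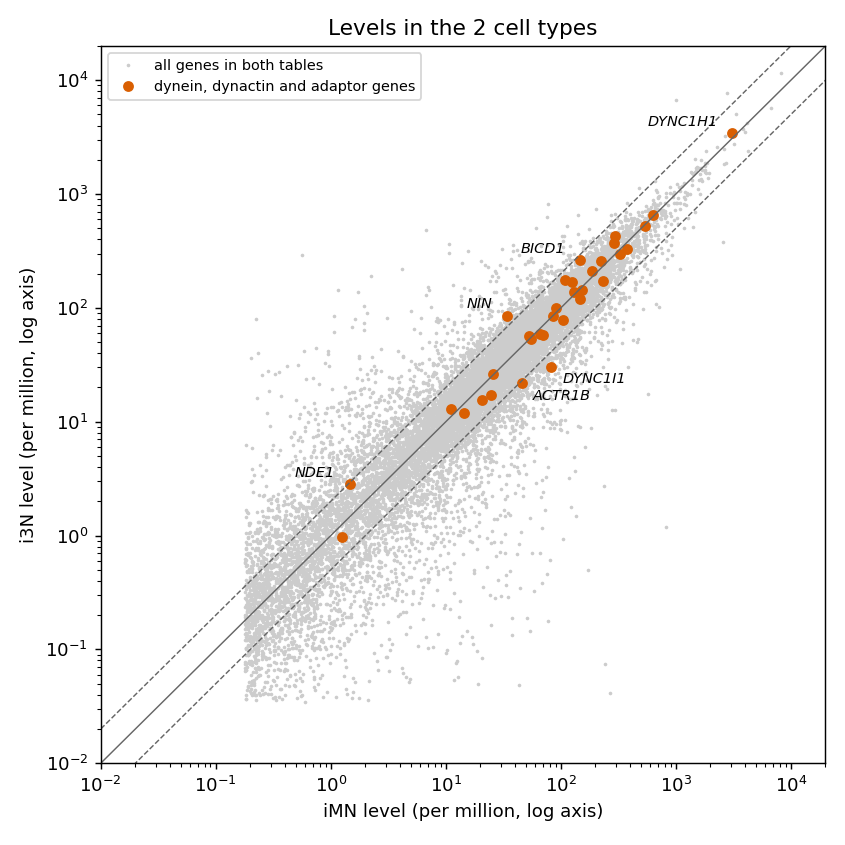
Rescaled level in i3Ns against that in iMNs, each as a share of the summed means of shared symbols in parts per 1000000 on a log axis, for all 15666 genes (grey) and the 33 dynein, dynactin and adaptor genes (orange). The solid line marks equal levels and the dashed lines 2-fold, with *NIN* above the upper dashed line and *DYNC1I1* and *ACTR1B* below the lower one.

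Other genes of the pathway were examined as a list of 35, of which 34 were in both tables. It holds the capping proteins of dynactin, dynein-2 of cilia, further adaptors, plus-end proteins and cargo RABs. Of the 34, 3 were over 2-fold higher in i3Ns and 3 over 2-fold lower (8.82% each), beside 9.82% and 13.9% of all 15666 genes. Their median absolute log2 ratio was 0.30, beside 0.47 over all genes. The 3 higher ones were *TRAK2*, a mitochondrial adaptor, with means of 2852 and 9750 (3.29-fold), *CRACR2A* with 12.6 and 39.0 (2.99-fold) and *CCDC88B*, a relative of girdin, with 152 and 469 (2.97-fold). Higher in iMNs were *HAP1*, the huntingtin-associated adaptor, with 798 and 54.8 (15.1-fold), the dynein-2 light chain *DYNLT2B*, listed as *TCTEX1D2*, with 486 and 227 (2.23-fold), and *RILPL2* with 33.4 and 16.5 (2.10-fold). The *HAP1* ratio was larger than that of any dynein, dynactin or adaptor gene above. Of the 13 further adaptors and relatives in both tables, 3 were over 2-fold higher in i3Ns and 2 lower, and of the 5 dynein-2 genes 1 was lower. All 3 capping proteins, all 9 regulators and plus-end proteins and all 4 cargo RABs lay within 2-fold. *BICDL2* was listed in i3Ns only, with a mean of 2.77.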

How the data were processed

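The authors trimmed reads of ribosomal RNA-depleted total RNA libraries with fastp, quantified transcripts with Salmon and ran DESeq2 for each cell type. Versions and transcript annotation are not given in the sources used here. The deposited tables hold 16406 rows (iMN) and 19016 rows (i3N). Only 1 value column was used, a signal: the authors' mean normalized count from DESeq2, over 6 libraries of a cell type. How the Salmon values entered DESeq2, and what the normalization took into account, are not stated in the sources used here. The 4 columns of the authors' comparison (log2 fold change, its standard error, p-value and adjusted p-value) were not used. Totals per library are unknown, so no interval is given for any level.

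Rows were matched on the symbol and summed over identifiers. Levels between genes were divided by the MANE Select transcript length in GENCODE release 44, and levels between tables by the summed means of shared symbols. All 34 genes had a MANE transcript. For other genes without one, the longest protein-coding transcript was used, or failing that the longest transcript. Symbols with no identifier in the main annotation had no level per kb and were left out of the rankings per kb. Shared runs of 31 bases were counted on both strands over all GENCODE transcripts. Scripts used Python 3.11.15, pandas 2.3.3 and Biopython 1.88, and the ratio and share steps were tested on simulated data. The test of the ratio step used values without noise and centring on the median ratio, not the main scale. It thus checks the code of that alternative and says nothing on the precision of the ratios above. The genes, lists and limits were chosen with earlier results of these data known: every gene of the group could be named, other pathway genes were counted and named where over 2-fold, and marker genes were listed by cell type. Alternatives changed the scale between tables, the identifiers summed, the fold limit, the filter on low values and the length.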

Additional observations from a re-analysis of the deposited data

How the results depend on the processing

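No paired analysis was possible because the deposited means pool all 6 libraries of a cell type, and no replicate could be left out for the same reason. The scale between tables moved every log2 ratio by the same amount, 0.056 for means as deposited and -0.044 for centring on the median ratio. The median ratio of the 33 genes was then 0.0551 and -0.0446, in place of -0.00091, so its sign depended on the scale. Of single genes, 3 changed sign with means as deposited and 1 with centring, all with ratios within 0.046 of 0. The count over 2-fold higher in i3Ns was 2 with means as deposited, 2 with main-annotation identifiers only, *NDE1* being the addition each time, and 4 at a 1.5-fold limit, where 2 were lower. *NIN*, *DYNC1I1* and *ACTR1B* stayed over 2-fold under all 4 alternatives of scale and identifiers. With the longest annotated transcript in place of the MANE transcript, 3 families moved by over 10 percentage points: *DYNLT3* held 33.1% and 28.2% in place of 11.1% and 9.02%, *DYNLL2* 33.8% and 35.7% in place of 19.7% and 21.1%, and *DYNC1LI1* 25.4% and 29.8% in place of 39.7% and 45.0%. Without division by length, *DYNLL2* led its pair in both tables, *BICD1* led in iMNs and *NIN* led in i3Ns.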
